A study of Mus musculus with 24 samples.

Results

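Protein-protected sites (PPSs) of MEL cells at day 4 of induction were compared between the nucleases that were used to find them. MEL cells are a murine erythroleukemia line that starts to make hemoglobin when grown with DMSO. Sites were grouped by the calls that the authors merged into them. A site with ssRNase calls alone, with dsRNase calls alone or with calls of both nucleases went into a group of its own, and sites of 20 to 40 nt, the class the study treats as ribosome-sized, were left out. Of 152513 sites at day 4, 122038 lay outside that length class. Of these, 43542 held ssRNase calls only, 48911 held dsRNase calls only and 29585 held calls of both. The whole series, with day 0, day 2 and day 4, lists 460777 sites. At the length limits, 385 sites of 19 nt were kept and 413 of 20 nt were left out, while 2530 of 40 nt were left out and 2569 of 41 nt were kept.

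Protein interaction profile sequencing (PIP-seq) digests RNA with and without its proteins. All day 4 cultures were grown with 2% DMSO for 4 days and crosslinked with formaldehyde, and the labels name no engineered allele. Each of 2 replicates was then split into 4 libraries, namely footprinting (digested with proteins in place) and structure-only (proteins removed first), each with ssRNase (RNaseONE) or dsRNase (RNase V1). The 8 libraries gave 4 call sets, because a call sets the footprinting library of a nuclease and replicate against its structure-only partner. The nucleases also differed in units, buffer and temperature, which cannot be told apart from their specificity. MEL cells are a transformed line, and these cultures model erythroid maturation in that line.

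An ssRNase cuts unpaired RNA and a dsRNase cuts paired RNA. A protein that covers a stretch of RNA shields it from either enzyme, but the shield can show only where the enzyme would cut once the protein is gone. A site seen with ssRNase is therefore read as protein on RNA that was open to an enzyme for unpaired bases, and a site seen with dsRNase as protein on RNA open to an enzyme for helices. In nuclei of erythroid cells RNA-binding proteins cover introns and splice sites, and in the cytoplasm they cover 3′ untranslated regions (UTRs), where they set the stability and translation of mRNAs.

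The 4 call sets were of similar size. Outside 20 to 40 nt, ssRNase gave 49445 calls in replicate 1 and 49802 in replicate 2, and dsRNase gave 56981 and 41775. The lists hold no read counts, so the depth behind a call cannot be read from them. All 10 erythroid marker genes, among them Hba-a1, Hbb-bs, Alas2 and Gata1, held exonic calls, with sums of 26 and 18 calls in the ssRNase sets and 50 and 36 in the dsRNase sets of replicates 1 and 2. Of 6 markers of other blood lineages, only Pf4 did, with 1 call in each dsRNase set, and Cd3e, Itgam, Mpo and Ptprc were among those at 0. One call set stood apart by strand. In ssRNase replicate 2, 41.6% of single-nuclease sites lay on the plus strand, against 51.1%, 53.0% and 53.5% in ssRNase replicate 1 and dsRNase replicates 1 and 2. Differences below are therefore given for each replicate, and the value of replicate 1 is the one without that call set.

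The sequences of a few sites with the highest scores are given first. They are read from the GRCm38 (mm10) assembly on the strand of the site. The first 3 are the highest-scoring sites with ssRNase calls of both replicates and no dsRNase call, of at most 300 nt, that lay wholly in a CDS or intron or on a noncoding RNA. All were intronic. Capitals mark GCTG, TGAG and GAGG, the 3 words of 4 letters that were most enriched in ssRNase sites in both replicates (below).

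Atrnl1 intron, chr19:57634402-57634627, plus strand: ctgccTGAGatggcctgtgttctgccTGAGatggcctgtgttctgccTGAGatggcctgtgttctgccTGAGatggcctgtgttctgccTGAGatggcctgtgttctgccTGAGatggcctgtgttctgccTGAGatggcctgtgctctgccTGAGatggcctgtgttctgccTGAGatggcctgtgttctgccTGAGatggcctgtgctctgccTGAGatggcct
Inf2 intron, chr12:112613821-112613927, plus strand: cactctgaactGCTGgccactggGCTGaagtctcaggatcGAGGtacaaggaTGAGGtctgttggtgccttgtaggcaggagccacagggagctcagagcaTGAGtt
Clint1 intron, chr11:45854754-45854999, plus strand: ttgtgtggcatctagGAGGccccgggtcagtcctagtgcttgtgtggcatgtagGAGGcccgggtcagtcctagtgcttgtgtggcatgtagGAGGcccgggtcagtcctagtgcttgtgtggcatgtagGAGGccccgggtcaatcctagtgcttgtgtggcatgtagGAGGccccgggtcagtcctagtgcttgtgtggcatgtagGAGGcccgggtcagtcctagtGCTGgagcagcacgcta

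The Atrnl1 site is a tandem repeat with a unit of 21 nt, in which 98.5% of bases equal the base 21 nt further on, and it held the enriched words 11 times. The Clint1 site repeats a longer unit and held them 7 times, and the Inf2 site, which is not repetitive, 6 times. G made up 33.2% of the Atrnl1 site, 37.8% of the Clint1 site and 34.6% of the Inf2 site, and A 9.73%, 14.2% and 22.4%.

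The 3 sites chosen in the same way for dsRNase lay on noncoding exons. None held the words most enriched in dsRNase sites (AACA, TAAA and ACAA), while the words enriched in ssRNase sites occurred in them 1, 5 and 4 times in the order below, so these sites do not show the contrast in words described later. Capitals mark CTGA here, the D box of C/D box snoRNAs, which guide methylation of other RNAs.

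1110038B12Rik, chr17:34952219-34952310, minus strand: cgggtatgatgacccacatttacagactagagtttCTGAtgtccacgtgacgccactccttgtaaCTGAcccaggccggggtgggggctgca
Gm24253, chr11:56263165-56263237, minus strand: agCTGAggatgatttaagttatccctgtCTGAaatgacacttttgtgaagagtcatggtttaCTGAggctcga
Snord1c, chr11:116672512-116672581, plus strand: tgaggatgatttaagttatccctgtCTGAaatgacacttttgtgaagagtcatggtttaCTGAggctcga

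Gm24253 is annotated as a snoRNA, and the third site covers Snord1c inside its host 1810032O08Rik. The 70 nt of the Snord1c site are contained letter for letter in the Gm24253 site, and both carry a score of 64.64. Reads that fit several places in the genome were not discarded before calling, so that protection of these 2 copies cannot be told apart. CTGA is a common word. It was found in 31.2% and 31.3% of 50-nt windows of dsRNase sites and in 34.03% and 35.4% of those of ssRNase sites, so a match describes the sequence only.

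Sites inside coding sequence give the contrast on mature mRNA. These sites were chosen after the values were seen. They are the 3 highest-scoring ones of each nuclease with calls of both replicates, of at most 300 nt, that lay wholly in a CDS. Sites that also touched a UTR, an lncRNA exon or a small RNA gene were left out. Not all chromosomes were searched for the sites shown here and above. In the ssRNase sites capitals again mark GCTG, TGAG and GAGG, and in the dsRNase sites they mark AACA, TAAA and ACAA.

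Brf1 CDS (ssRNase), chr12:112961116-112961232, minus strand: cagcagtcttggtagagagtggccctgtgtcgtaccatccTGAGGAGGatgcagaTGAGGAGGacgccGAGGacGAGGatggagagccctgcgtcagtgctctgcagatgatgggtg
Birc2 CDS (ssRNase), chr9:7833506-7833632, minus strand: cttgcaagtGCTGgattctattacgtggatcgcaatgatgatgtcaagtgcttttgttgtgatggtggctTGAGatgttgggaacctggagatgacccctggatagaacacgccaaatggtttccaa
Kmt2d CDS (ssRNase), chr15:98855535-98855685, minus strand: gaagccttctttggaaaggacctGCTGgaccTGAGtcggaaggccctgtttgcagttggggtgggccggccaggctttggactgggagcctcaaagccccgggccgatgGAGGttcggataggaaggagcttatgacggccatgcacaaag
Atrx CDS (dsRNase), chrX:105876935-105877203, minus strand: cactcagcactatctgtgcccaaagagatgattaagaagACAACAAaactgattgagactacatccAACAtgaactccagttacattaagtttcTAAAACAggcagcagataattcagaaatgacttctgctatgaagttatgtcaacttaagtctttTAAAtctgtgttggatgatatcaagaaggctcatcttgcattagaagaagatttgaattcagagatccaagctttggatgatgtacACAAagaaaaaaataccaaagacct
Tpt1 CDS (dsRNase), chr14:75846694-75846788, plus strand: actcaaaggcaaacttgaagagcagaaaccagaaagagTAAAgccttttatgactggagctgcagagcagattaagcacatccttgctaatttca
Itm2b CDS (dsRNase), chr14:73366322-73366524, minus strand: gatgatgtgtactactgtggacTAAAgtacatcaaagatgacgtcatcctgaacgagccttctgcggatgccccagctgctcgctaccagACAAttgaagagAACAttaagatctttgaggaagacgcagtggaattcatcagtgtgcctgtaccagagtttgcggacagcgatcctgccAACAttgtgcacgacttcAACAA

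The site in Brf1, which encodes a subunit of the RNA polymerase III initiation factor TFIIIB, was 39.3% G and 21.4% A. That in Kmt2d, a histone methyltransferase gene, was 37.1% G, and that in Birc2, which encodes an inhibitor of apoptosis, was 29.1% G. The dsRNase sites in Atrx, a chromatin remodeler gene, and in Tpt1, which encodes a translationally controlled tumor protein, were 17.5% and 21.1% G and 38.3% and 37.9% A. Other transcripts of Atrx have this stretch in an intron. The Itm2b site was more even, with 24.1% G and 29.1% A.

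The first question was where on transcripts the nucleases find protected sites. For each replicate, sites with calls of that replicate were compared between the ssRNase-only and dsRNase-only groups. Sites are not replicates and there are 2 pairs of call sets, for which an exact two-sided sign-flip test cannot give less than p = 0.5, so no p-value is given for shares. Newcombe 95% intervals cover counting error only.

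ssRNase sites lay in introns more often and in 3′ UTRs less often than dsRNase sites. Introns were touched by 64.7% of ssRNase sites in replicate 1 and 65.9% in replicate 2, against 50.8% and 45.9% of dsRNase sites. The difference was 13.9 points in replicate 1 (13.1 to 14.7) and lay between 19.2 and 20.8 points in replicate 2, with a mean of 17.0 ± 4.31 (SD, n = 2). 3′ UTRs were touched by 13.9% and 14.3% of ssRNase sites and by 27.2% and 30.7% of dsRNase sites, with differences of -13.3 points (-13.9 to -12.7) and -16.4 points (-17.1 to -15.7). In both classes the nucleases lay further apart than their replicates. With a score of at least 10 the mean differences were 28.1 points for introns and -24.2 points for 3′ UTRs. A site that touched an intron of any transcript could also hold exonic bases. Sites inside genes that touched no exon made up 43.6% and 46.5% of ssRNase sites and 36.4% and 31.3% of dsRNase sites. For these wholly intronic sites the differences were smaller, at 7.16 and 15.2 points.

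The CDS share did not separate the nucleases at day 4. It was 35.6% and 31.8% with ssRNase and 31.8% and 35.3% with dsRNase, so that the difference was 3.76 points in replicate 1 and -3.45 points in replicate 2. Each interval excluded 0, with opposite signs. Sites wholly inside a CDS gave the same sign in both replicates, at -1.52 and -6.96 points.

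Smaller classes also differed. 5′ UTRs were touched by 4.73% and 4.10% of ssRNase sites against 2.94% and 2.90% of dsRNase sites. Exons of long noncoding RNAs (lncRNAs) were touched by 1.27% and 1.22% against 0.679% and 0.705%. Sites antisense to a gene made up 2.14% and 2.11% against 1.64% and 1.52%, and intergenic sites 4.21% and 4.17% against 3.33% and 3.28%. In each of these classes both ssRNase call sets were above both dsRNase call sets.

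**Figure D1:**
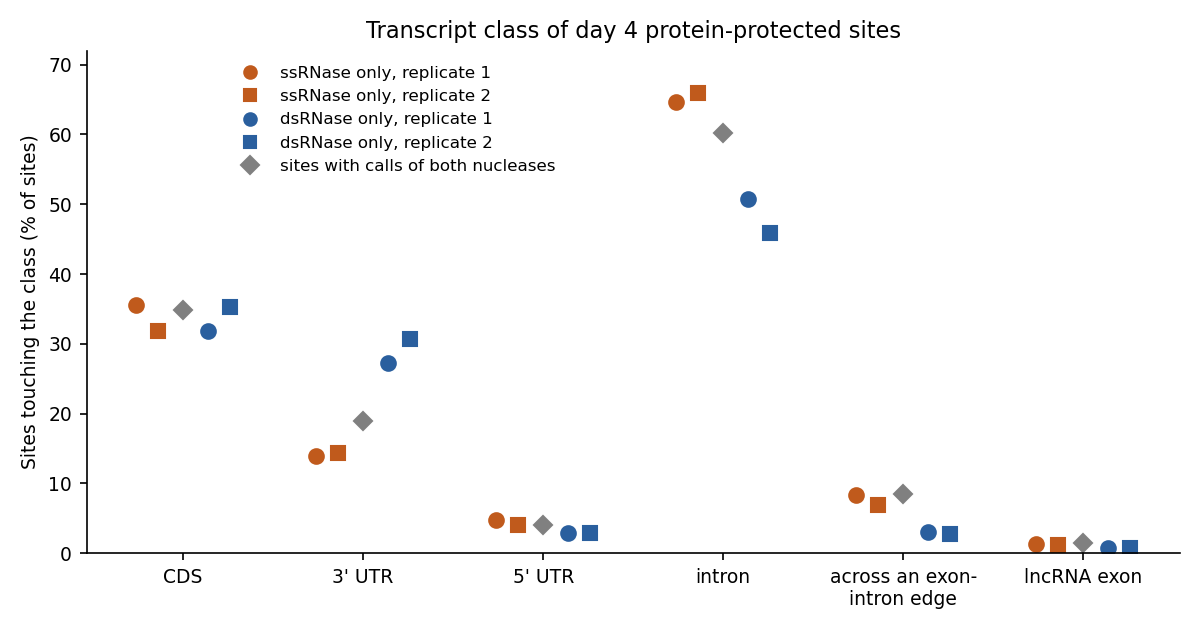
Share of day 4 sites (%, y axis) that touch each transcript class (x axis), for sites with ssRNase calls only (orange) and dsRNase calls only (blue), with replicate 1 as circles and replicate 2 as squares, and for sites with calls of both nucleases (grey diamonds, both replicates together). The intron points of ssRNase (64.7% and 65.9%) lie above those of dsRNase (50.8% and 45.9%), the 3′ UTR points lie in the opposite order, and the CDS points cross between replicates.

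The same classes were compared at the other days to place the day 4 values. At day 0 the intron difference was 43.6 and 41.2 points in the 2 replicates and the CDS difference -27.8 and -26.1 points. At day 2 they were 30.1 and 43.6 points for introns and -21.3 and -35.1 points for the CDS. When each day 4 replicate was set against each of day 0, the CDS difference at day 4 lay 22.6 to 31.6 points higher and the intron difference 21.2 to 29.7 points lower. The differences of day 4 thus did not overlap those of day 0, but with 2 replicates a day an exact test cannot pass the threshold. The call sets also differed in size between days. dsRNase gave 28673 and 33697 calls at day 0, 31078 and 15190 at day 2 and 56981 and 41775 at day 4. ssRNase gave 57759 and 52600, 53869 and 75372, and 49445 and 49802. The part of list size in these shifts was not tested.

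Sites with calls of both nucleases fell between the single-nuclease groups in their intron share (60.2%) and 3′ UTR share (18.9%). They were the longest sites, with a median of 84 nt and quartiles of 65 and 113 nt, and held a median of 3 calls. Of these sites 75.7% had calls from replicates 1 and 2, against 27.9% of ssRNase-only and 18.5% of dsRNase-only sites. Merging of calls makes sites longer and joins nucleases, so these features are not independent.

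Sharing of sites was then compared between nucleases and between replicates. Of the sites with an ssRNase call of replicate 1, 28.9% also held a dsRNase call of that replicate, and 47.5% an ssRNase call of the other replicate. For ssRNase replicate 2 the shares were 23.7% and 46.99%. Of the sites of dsRNase replicates 1 and 2, 25.1% and 28.4% held an ssRNase call of the same replicate, and 30.3% and 41.4% a dsRNase call of the other. In all 4 call sets more sites were shared with the same nuclease of the other replicate than with the other nuclease of the same replicate. Sharing with the other nuclease of the other replicate was 22.1% and 31.1% for ssRNase and 27.3% and 26.2% for dsRNase. At day 2 the order was opposite for dsRNase, with 29.9% and 39.4% shared with ssRNase against 16.1% and 33.2% with the other replicate. The remaining call sets of day 0 and day 2 kept the order. The part of set size was not tested.

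The edges of exons were examined next, since introns and exons meet there. Sites that ran across an exon-intron edge made up 8.29% and 6.97% of ssRNase sites and 3.01% and 2.71% of dsRNase sites, differences of 5.28 points (4.91 to 5.65) and 4.26 points (3.89 to 4.62). Among sites with calls of both nucleases the share was 8.51%. The ssRNase sites lay mostly on one edge. Of 2353 edge sites of replicate 1, 1881 (79.9%) lay over an exon end, the 5′ splice site, and 453 (19.3%) over an exon start. In replicate 2 the exon end took 1498 of 1905 (78.6%). Of dsRNase edge sites, 52.4% of 1021 and 49.8% of 654 lay over an exon end and 38.9% and 42.8% over an exon start.

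Within spliced coding sequence the nucleases differed on the same side. Over 83506 junctions between coding exons in 7739 genes, the positions from 10 to 40 nt upstream of the junction lay in an ssRNase-only site in 6.40% and 5.37% of cases and in a dsRNase-only site in 3.62% and 2.80%. In the matching positions downstream the values were 3.47% and 3.25% with ssRNase and 3.92% and 3.11% with dsRNase. The ratio of upstream to downstream coverage was 1.85 and 1.65 with ssRNase and 0.922 and 0.900 with dsRNase. Sites that also touch introns add to this. With sites wholly inside exons, the ratio was 1.63 and 1.44 with ssRNase and 0.901 and 0.888 with dsRNase, and the mean difference in upstream coverage fell from 2.68 to 1.48 points. As background, the exon junction complex is deposited a short way upstream of such junctions during splicing. Its part in these values was not tested.

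**Figure D2:**
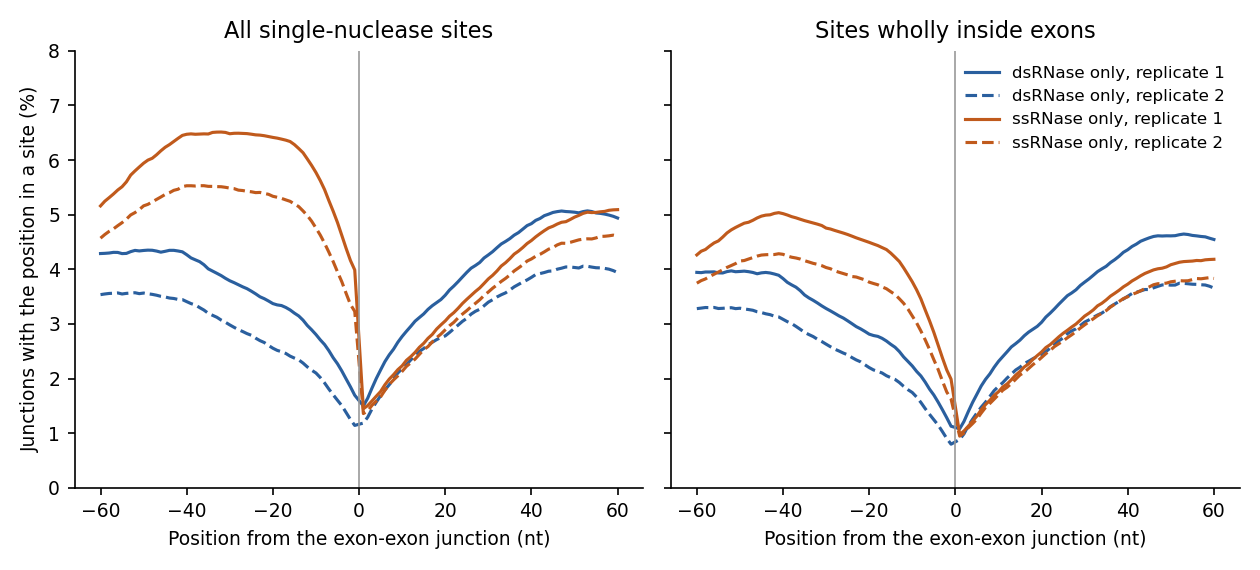
Share of 83506 junctions between coding exons at which a position lies in a site (%, y axis), by distance from the junction (nt, x axis, negative is upstream), for ssRNase-only (orange) and dsRNase-only (blue) sites of replicate 1 (solid) and replicate 2 (dashed). All single-nuclease sites are on the left and sites wholly inside exons on the right. Upstream the ssRNase lines lie above the dsRNase lines, with mean coverage of 6.40% and 5.37% against 3.62% and 2.80% in the left panel, and downstream the lines run close together.

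Along whole coding transcripts, coverage by dsRNase-only sites was highest, among 6 windows taken, on either side of the stop codon. In the last 100 nt of 5′ UTRs (5659 genes) ssRNase covered 3.44% and 2.96% of positions and dsRNase 2.26% and 1.62%. In the first 100 nt of the CDS (8188 genes) the nucleases were close, at 4.55% and 3.70% against 4.49% and 3.43%. In the last 100 nt of the CDS ssRNase covered 2.84% and 2.62% and dsRNase 7.15% and 5.68%. The first 100 nt of the 3′ UTR (7625 genes) gave 1.77% and 1.67% against 6.47% and 5.38%. From 400 to 500 nt after the stop codon (5645 genes) ssRNase covered 0.741% and 0.968% and dsRNase 4.82% and 3.87%. The last 100 nt of transcripts gave 0.375% and 0.457% against 3.03% and 2.55%. In every window from the last 100 nt of the CDS onward the dsRNase call sets lay above both ssRNase call sets.

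**Figure D3:**
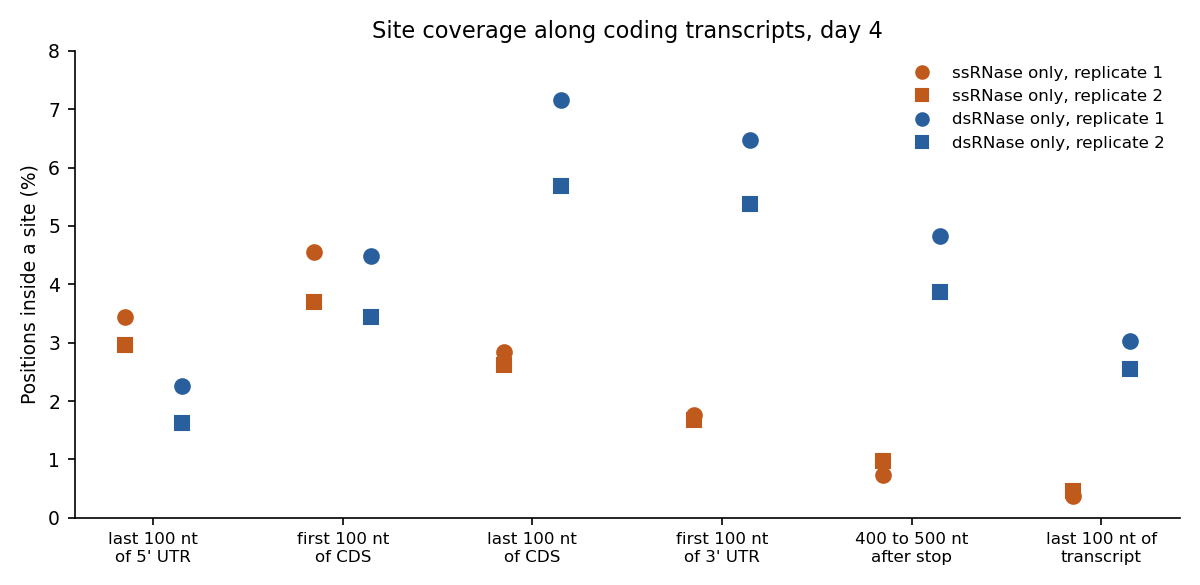
Share of transcript positions inside a day 4 site (%, y axis) in 100-nt windows along coding transcripts (x axis), for ssRNase-only (orange) and dsRNase-only (blue) sites of replicate 1 (circles) and replicate 2 (squares). The nucleases are close in the first 100 nt of the CDS, ssRNase is higher in the 5′ UTR window, and dsRNase is higher from the end of the CDS to the end of the transcript.

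Small noncoding RNAs were found more often with dsRNase. Genes of small RNAs were touched by 395 sites, of which 44 held ssRNase calls only, 121 dsRNase calls only and 230 calls of both. Of all single-nuclease sites, 0.116% and 0.0842% of ssRNase sites and 0.301% and 0.411% of dsRNase sites touched one. Most were snoRNA genes, with 12 ssRNase-only, 93 dsRNase-only and 177 shared sites. The snoRNA sites held 186 and 139 ssRNase calls and 284 and 280 dsRNase calls in replicates 1 and 2. miRNA genes, by contrast, had 23 sites of each single-nuclease group and 35 shared sites. Among them were Mir20a and Mir92-1 of the same primary transcript. Mir92-1 held 5 and 3 ssRNase calls and 3 and 3 dsRNase calls. Small Cajal body RNAs were mostly shared, with 22 of 29 sites in the group of both nucleases.

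The length of sites differed by a few nt. The median was 62 and 63 nt for ssRNase sites and 57 and 57 nt for dsRNase sites. A single call made up 57.1% and 55.5% of ssRNase sites and 73.2% and 62.4% of dsRNase sites. Among single-call sites the medians were 55 and 56 nt against 54 and 52 nt. The order was the other way in sites wholly inside 3′ UTRs, with medians of 59 and 60 nt for ssRNase and 61 and 61 nt for dsRNase. Sites of 200 nt or more were rare, with 249 ssRNase-only, 129 dsRNase-only and 1114 shared sites.

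Base content separated the nucleases clearly. Mean G content was 30.4% and 29.6% in ssRNase sites and 24.5% and 24.3% in dsRNase sites, a mean difference of 5.66 ± 0.424 points (SD, n = 2). Mean A content was lower with ssRNase, at 26.4% and 26.98%, with differences of -3.57 and -3.29 points and a mean difference of -3.43 ± 0.199 points. C and T moved less. The C difference was -0.554 and -1.15 points and the T difference -1.83 and -0.920 points. The SD of G content over sites of a call set was 6.22 to 6.46 points, so that the groups overlap broadly site by site.

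The difference was found in each region taken alone. In sites wholly inside introns G content was 29.5% and 28.7% with ssRNase and 24.7% and 24.4% with dsRNase. In sites wholly inside a CDS it was 31.5% and 31.2% against 25.3% and 25.5%, and in sites wholly inside 3′ UTRs 30.8% and 30.05% against 23.2% and 22.96%. Sites across exon-intron edges gave 29.5% and 29.3% against 25.7% and 25.4%. The A difference ran from -3.98 to -2.02 points over these regions and replicates. The G difference was thus present at equal transcript class.

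**Figure D4:**
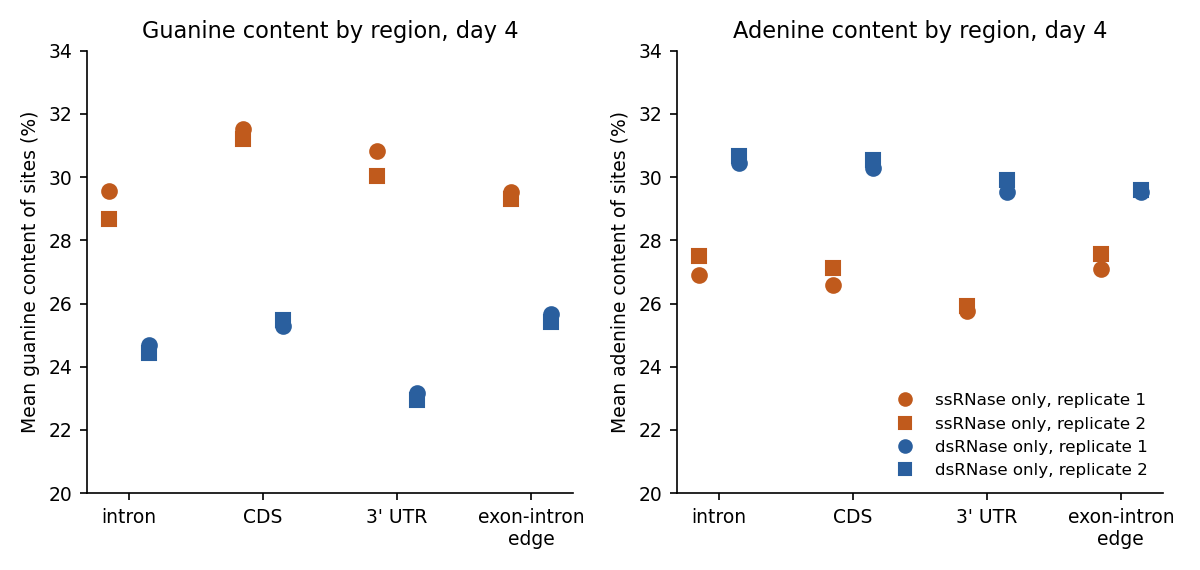
Mean G content (left, %, y axis) and mean A content (right, %, y axis) of day 4 sites wholly inside introns, CDS and 3′ UTRs and of sites across exon-intron edges (x axis), for ssRNase-only (orange) and dsRNase-only (blue) sites of replicate 1 (circles) and replicate 2 (squares). The y axes run from 20% to 34%. In every region both ssRNase points lie above both dsRNase points for G and below them for A.

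Sites were also compared within genes. In genes with exonic sites of both single-nuclease groups, the mean G content of a gene's ssRNase sites exceeded that of its dsRNase sites by 6.22 points in replicate 1 (3974 genes) and 5.72 points in replicate 2 (3472 genes). G was higher with ssRNase in 84.1% and 81.7% of these genes. For intronic sites the excess was 4.08 points over 2427 genes and 3.53 points over 2032 genes. Genes are not independent replicates here, since each rests on the same 4 call sets.

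The G difference was larger inside the sites than around them. The 30 nt on either side of a site were 24.5% and 23.7% G for ssRNase and 22.2% and 21.9% G for dsRNase. G content rose from flank to site by 5.96 and 5.92 points with ssRNase and by 2.28 and 2.36 points with dsRNase. A content rose by 1.44 and 1.57 points with ssRNase and by 4.28 and 4.41 points with dsRNase.

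At the edges of sites each nuclease left its own base profile. These values are from sites made of a single call, so that both ends belong to 1 call set. The first base of ssRNase sites was A in 39.1% and 39.5% of cases, against 28.7% and 29.3% for dsRNase. The base just before the site was C in 31.7% and 29.4% with ssRNase and in 36.0% and 36.04% with dsRNase, and the base before that was C in 22.8% and 22.2% against 36.5% and 35.9%. At the other end, the next to last base of dsRNase sites was C in 42.8% and 42.8% of cases, against 29.99% and 28.6% for ssRNase. G was scarce at the first base with both nucleases, at 11.7% and 11.3% for ssRNase and 11.8% and 11.6% for dsRNase. Sequence preference of an enzyme and base content of the protected RNA cannot be told apart in these lists.

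Predicted folding differed along with base content. The minimum free energy of 50-nt windows centred on sites, computed from sequence alone, averaged -9.50 and -9.08 kcal/mol for ssRNase sites and -7.62 and -7.54 kcal/mol for dsRNase sites. Windows of ssRNase sites thus had the stronger predicted folds, by a mean of 1.71 kcal/mol (difference -1.71 ± 0.241, SD, n = 2). Their GC content was also higher, at 49.5% and 48.1% against 43.9% and 43.7%. Within each class of GC content the difference was smaller than over all windows. In windows of 40% to 50% GC it was -0.339 and -0.363 kcal/mol, in windows of 50% to 60% GC -0.573 and -0.605 kcal/mol, and in windows of 20% to 30% GC 0.126 and 0.196 kcal/mol. It grew with GC content, to -0.870 and -1.06 kcal/mol in windows of 60% to 70% GC and -1.21 and -1.47 kcal/mol in those of 70% to 80% GC.

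Short words showed the same contrast. All words of 4 letters were counted in 50-nt windows on the strand of the site. Of 256 words, 103 were more frequent in ssRNase windows in both replicates, 130 were more frequent in dsRNase windows in both, and 23 differed in sign. GCTG was found in 36.0% and 35.2% of ssRNase windows and 22.8% and 23.1% of dsRNase windows. TGAG was found in 40.4% and 40.99% against 28.9% and 27.9%, and GAGG in 34.3% and 32.1% against 20.8% and 20.7%. In the other direction, AACA was found in 17.1% and 17.7% of ssRNase windows and 27.6% and 28.1% of dsRNase windows, TAAA in 11.4% and 13.1% against 23.5% and 23.2%, and ACAA in 13.4% and 13.9% against 23.7% and 23.7%. The Brf1 and Atrx sites above carry several of these words each.

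Words of known RNA elements were counted in the same windows. GGGG, as in G-rich elements, was found in 13.5% and 12.2% of ssRNase windows and 8.23% and 7.70% of dsRNase windows. GTGTG, a GU-rich word, gave 10.5% and 9.56% against 5.73% and 5.51%, and GAAG, a purine word of exonic splicing enhancers, 38.2% and 39.1% against 32.3% and 32.8%. The AU-rich word ATTTA went the other way, with 2.76% and 3.26% against 6.18% and 6.15%, as did AAAAA (3.40% and 4.205% against 7.66% and 7.64%), TTTTT (3.25% and 3.97% against 5.74% and 5.29%) and TGTA, the core of Pumilio sites (23.002% and 23.1% against 25.4% and 26.4%). CCCC and CTCTC had differences whose counting intervals included 0 in both replicates, from -0.361 to 0.157 points and from -0.129 to -0.0673 points.

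To ask which genes were favored by a nuclease, calls per gene were compared in a limma fit with the replicate as a block. Calls, unlike merged sites, belong to 1 call set each. They were scaled by the total calls of the set, so that a log2 difference is relative to all genes. The numbers of cells and of RNA molecules per cell cannot be told apart in bulk extracts, but both nucleases were used on portions of the same extracts. Exonic calls were found for 9255 genes, of which 2993 had a mean of at least 3 calls and were fitted. ssRNase calls were higher for 280 genes (9.36% of those fitted) and dsRNase calls for 242 genes (8.09%), at an adjusted p below 0.05. The unadjusted p was below 0.05 for 939 genes. The replicates gave the same sign for 71.9% of fitted genes. With 1 residual degree of freedom per gene and an unlimited prior, SE and p-values of the exonic fit rest on the spread pooled over genes. The size of an adjusted p is thus no measure of a gene's own spread between the 2 replicates. Scaling by the median ratio left 60 and 55 genes past the threshold, and 30 of the 45 named calls, exonic and intronic, were lost with it. With 1 call set left out, 177 to 267 genes had higher ssRNase calls and 70 to 305 higher dsRNase calls, with the fewest without ssRNase replicate 2 and without dsRNase replicate 2, in that order.

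**Figure D5:**
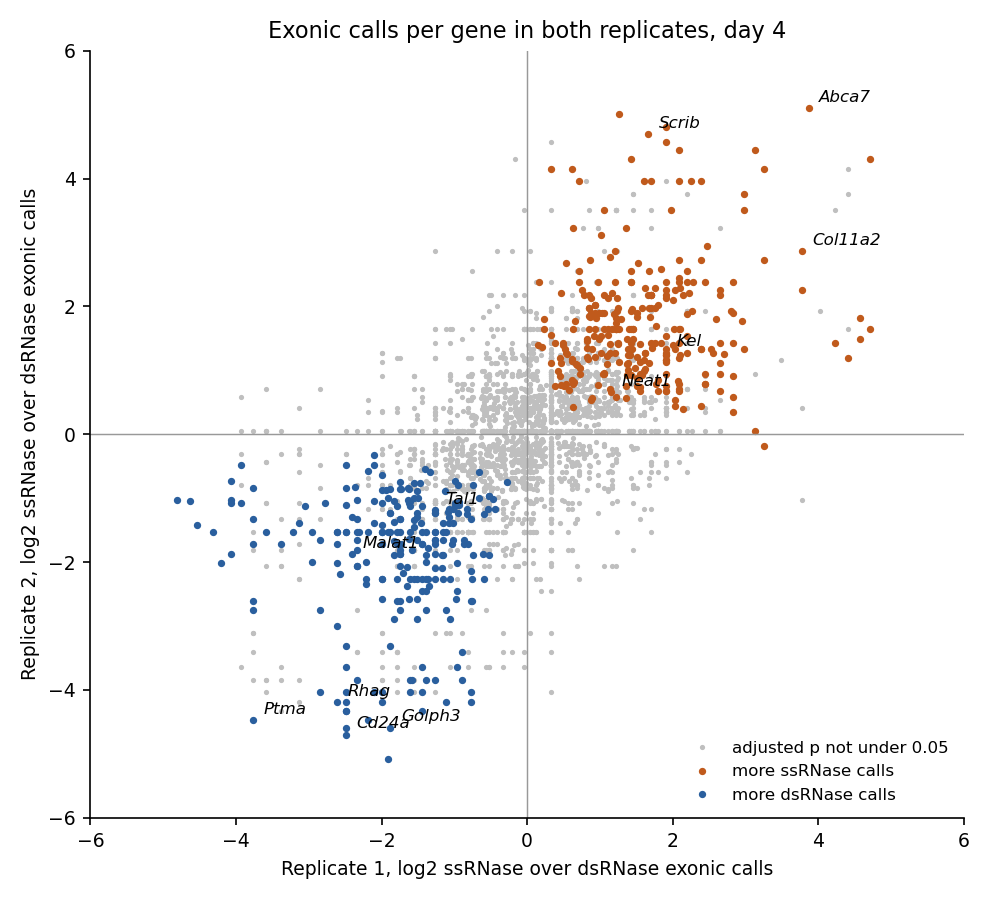
Log2 ratio of scaled ssRNase to dsRNase exonic calls per gene in replicate 1 (x axis) and replicate 2 (y axis) for 2993 genes at day 4. Orange points are 280 genes with more ssRNase calls and blue points 242 genes with more dsRNase calls at an adjusted p below 0.05 (limma), and grey points are the rest. Genes lie on a grid where calls are few, and named genes stand at the ends of the diagonal or belong to the gene lists.

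The genes with higher dsRNase calls were led by Ptma (chromosome 1, 86526726 to 86530712, plus strand), which encodes the acidic nuclear protein prothymosin alpha. It held 0 and 0 ssRNase calls and 8 and 11 dsRNase calls. Against a floor of 3 calls over both ssRNase sets this is at least 5.52-fold higher with dsRNase (limma adjusted p = 0.0337). The adjusted p of Ptma was 0.159 without dsRNase replicate 2 and 0.0945 with median-ratio scaling, and it passed under the other alternatives. Cd24a, a surface glycoprotein gene, held 1 and 0 ssRNase calls and 10 and 13 dsRNase calls (log2 difference -3.59, adjusted p = 0.000137). Of its 23 dsRNase calls, 21 lay in sites touching the 3′ UTR, and its adjusted p was 0.0672 without dsRNase replicate 2. Rhag, which encodes the Rh-associated glycoprotein of the red cell membrane, held 1 and 0 ssRNase calls and 11 and 9 dsRNase calls, and 16 of the latter lay in sites touching the CDS. Its call was lost with median-ratio scaling (limma adjusted p = 0.05155).

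The other 7 leading dsRNase genes had the same form, with 0 to 2 ssRNase calls per set. They were Eno1 (13 and 8 dsRNase calls), a glycolytic enolase gene, Ctsb (10 and 10), a lysosomal protease gene, Tmem123 (10 and 9), Ywhab (8 and 11), a 14-3-3 gene, Atl3 (8 and 10), an atlastin of the endoplasmic reticulum, Golph3 (11 and 12), a Golgi phosphoprotein gene, and Abi2 (8 and 9), an actin regulator. Their log2 differences ran from -3.44 to -3.19, with limma adjusted p from 3.27e-05 to 0.0105. Without dsRNase replicate 2 the calls of Ctsb, Tmem123, Ywhab, Atl3 and Abi2 were lost (adjusted p 0.0672 to 0.126), and without dsRNase replicate 1 that of Eno1 (0.0553), while Golph3 passed under all alternatives run. At its highest, the adjusted p of Golph3 lay just under the threshold. Median-ratio scaling lost the calls of Ctsb, Tmem123, Ywhab, Atl3 and Abi2 as well (limma adjusted p 0.0516 to 0.0686). A score of at least 10 lost that of Tmem123 (0.0786). Sites touching the 3′ UTR held all 19 dsRNase calls of Tmem123 and 16 of 18 of Atl3 but 2 of 21 of Eno1. Ptma and Eno1 have processed copies elsewhere in the genome, so that the placing of their reads is uncertain. All leading dsRNase genes, Ptma, Cd24a and Rhag included, lie on the plus strand. On that strand ssRNase replicate 2 held 41.6% of its single-nuclease sites. In replicate 1, without that call set, their log2 differences ran from -3.76 to -1.88. The leading ssRNase genes, named below, lie on both strands. The part of the strand skew in these lists was not tested.

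The genes with higher ssRNase calls were led by Abca7 (chromosome 10, 79996494 to 80015572, plus strand), which encodes a lipid transporter. It held 17 and 16 ssRNase calls and 1 and 0 dsRNase calls (log2 difference 4.48 ± 0.612 SE, limma adjusted p = 2.03e-10). All 33 ssRNase calls lay in sites touching the CDS. Col11a2, a fibrillar collagen gene, held 27 and 17 ssRNase calls and 2 and 2 dsRNase calls (log2 difference 3.32, adjusted p = 2.50e-11). Scrib, a cell polarity scaffold gene, held 16 and 12 against 6 and 0. Kdm6b, a histone demethylase gene, held 7 and 11 against 2 and 0, and its adjusted p was 0.184 without ssRNase replicate 2. Median-ratio scaling lost the call of Kdm6b as well (limma adjusted p = 0.0654). Abca7, Col11a2 and Scrib passed under all alternatives run, Scrib narrowly at its highest adjusted p.

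Rab24 (10 and 10 ssRNase calls), a small GTPase gene, Wnk4 (11 and 8), a kinase gene, Qtrt1 (9 and 6), a tRNA queuosine enzyme gene, Rhbdf1 (10 and 13), an inactive rhomboid gene, Acap3 (8 and 10), an Arf GTPase activator gene, and Icam5 (9 and 5), an adhesion molecule gene, completed the list, with 0 to 3 dsRNase calls per set. Their log2 differences ran from 3.25 to 3.79, with limma adjusted p from 1.44e-06 to 0.0356. Without ssRNase replicate 2 the calls of Rab24, Wnk4, Qtrt1, Acap3 and Icam5 were lost (adjusted p 0.0759 to 0.153), as were all of these but Acap3 without ssRNase replicate 1 (0.109 to 0.473). Median-ratio scaling lost the calls of Qtrt1, Acap3 and Icam5 (limma adjusted p 0.0556 to 0.1003). The leading ssRNase genes had most calls in sites touching the CDS, and the share in sites touching the 3′ UTR was uneven, with 16 of 23 calls for Rhbdf1 and 0 of 14 for Icam5.

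The called genes differed in their own sequence. The longest coding transcripts of ssRNase-higher genes had a median G content of 27.2% (quartiles 25.3% and 29.2%) and those of dsRNase-higher genes 23.3% (21.9% and 25.1%), against 25.1% for all fitted genes. Median 3′ UTR lengths were 650 nt and 2038 nt, against 1264 nt for all, and median CDS lengths 2346 nt and 1614 nt, against 1887 nt. ssRNase-higher genes had a median of 18 exons and dsRNase-higher genes 12.

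The lean of a gene was also seen in cells of the other days, which did not enter the fit. Of the 280 ssRNase-higher genes, 217 had a mean of at least 3 exonic calls at day 0, and 200 of them (92.2%) had a positive mean log2 difference there. Of the 242 dsRNase-higher genes, 205 did, and 17 (8.29%) were positive. Over all fitted genes 50.02% of 2013 were positive. At day 2 the counts were 219 of 247 (88.7%), 14 of 184 (7.61%) and 50.5% of 2082. Col11a2, for example, held 9 and 11 ssRNase calls and 2 and 2 dsRNase calls at day 0.

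Lists of erythroid genes differed in the sign of their median log2 difference, from 0.44 for heme synthesis to -0.58 for iron handling. Summed over the 10 erythroid marker genes, unscaled calls were 26 and 18 with ssRNase and 50 and 36 with dsRNase in replicates 1 and 2. The lists were chosen with earlier results of these data known, so they are described by counts and medians beside those of all 2993 fitted genes, whose median log2 difference was 0.02 and of which 9.36% had higher ssRNase and 8.09% higher dsRNase calls. Among 7 enzymes of heme synthesis, Ppox alone changed, with 17 and 17 ssRNase calls and 11 and 4 dsRNase calls (adjusted p = 0.0724 without dsRNase replicate 2), and the list median was 0.44. Among 11 erythroid transcription factors (median 0.01), Tal1 held 8 and 9 ssRNase calls and 25 and 22 dsRNase calls (log2 difference -1.22, limma adjusted p = 0.00168), and 34 of its dsRNase calls lay in sites touching the 3′ UTR. Gfi1b (log2 difference 1.41) and Lyl1 (1.205) did not pass, with adjusted p of 0.0939 and 0.117. Of the globin genes only Hba-a2 was fitted, with 4 and 3 ssRNase calls and 3 and 3 dsRNase calls. Its reads could come from the near-identical Hba-a1.

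Membrane and iron handling genes had medians on the dsRNase side but were called in both directions. Of all fitted genes, ssRNase calls were higher for 9.36% and dsRNase calls for 8.09%. Of 14 genes of the red cell membrane and skeleton (median -0.39), ssRNase calls were higher for Ank1, Dmtn and Kel and dsRNase calls for Rhag. Kel, a blood group protein gene, held 19 and 17 ssRNase calls and 6 and 7 dsRNase calls, and 34 of the 36 ssRNase calls lay in sites touching the CDS. Of 10 iron handling genes (median -0.58), ssRNase calls were higher for Tfr2 and dsRNase calls for 3 genes, Ireb2 and Tfrc among them. Ireb2, which encodes iron regulatory protein 2, held 0 and 4 ssRNase calls and 17 and 9 dsRNase calls, and Tfr2, a sensor of transferrin iron, 7 and 6 against 2 and 1. The call of Tfr2 was lost without ssRNase replicate 1 or 2 (adjusted p = 0.134 and 0.0865) and with voom weights (0.151). That of Ireb2 was lost with voom weights (0.0906), median-ratio scaling (0.0735) or a score of at least 10 (0.0592), and with voom weights 1 gene of the list passed. Slc11a2, an iron transporter gene, held 7 and 3 against 4 and 0 and did not pass (adjusted p = 0.147).

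Housekeeping genes lay on the dsRNase side in their medians. Of 26 translation factors (median -0.73), 7 had higher dsRNase calls and none had higher ssRNase calls, against 8.09% and 9.36% of all fitted genes, and with voom weights 2 passed. Eif5a held 2 and 0 against 9 and 7 calls and Eif2s3x 2 and 1 against 14 and 7, and neither passed with voom weights (adjusted p = 0.104 and 0.0885). Without dsRNase replicate 1 both were lost (adjusted p = 0.081 and 0.102), and without dsRNase replicate 2 Eif5a was (0.0898), while Eif1, with 2 and 0 against 6 and 4, did not pass (adjusted p = 0.224). Of 5 fitted histone genes (median -1.46) the linker and replacement histone genes H1f0 and H3f3b were called (adjusted p = 0.108 and 0.203 without dsRNase replicate 2, and 0.142 for H1f0 without dsRNase replicate 1), and H3f3a, with 1 and 1 against 6 and 6, was not (adjusted p = 0.0775). No member of 18 cytosolic ribosomal protein genes (median -0.68), 11 proteasome subunit genes (median -1.17), 14 nuclear-encoded respiratory chain genes (median -1.14) or 14 E2 ubiquitin-conjugating enzyme genes (median -0.38) passed in limma. Their counts at an unadjusted p below 0.05 were 1, 1, 3 and 4, and with voom weights 2 respiratory chain genes passed. The members with the largest differences in the ribosomal, proteasome and E2 lists were Rpl22 (-1.58), Psmd8 (-1.72) and Ube2e1 (-2.60). Of 11 MCM and cell cycle genes (median -0.71), Ccnd2, the cyclin D2 gene, passed, with 7 and 9 against 31 and 16 calls, of which 35 dsRNase calls lay in sites touching the 3′ UTR (adjusted p = 0.119 without dsRNase replicate 1).

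Genes of RNA-binding proteins were called in both directions. Of all fitted genes, 9.36% had higher ssRNase and 8.09% higher dsRNase calls. Of 27 SR protein and hnRNP genes (median -0.04), ssRNase calls were higher for Hnrnpdl, Hnrnpm and Srsf5 and dsRNase calls for Hnrnpa0, Hnrnpf and Srsf10. Hnrnpf held 2 and 3 ssRNase calls and 11 and 10 dsRNase calls. Of 23 RNA helicase genes (median 0.06), Dhx16 was higher with ssRNase (11 and 11 against 8 and 2) and Ddx3x with dsRNase (6 and 6 against 15 and 14). The calls of Hnrnpf, Hnrnpa0, Srsf10, Dhx16 and Ddx3x were lost without dsRNase replicate 2 (adjusted p 0.0987 to 0.239), and those of Hnrnpa0, Srsf10 and Ddx3x also without dsRNase replicate 1 (0.0859 to 0.13) and without ssRNase replicate 2 (0.0552 to 0.317), and that of Ddx3x without ssRNase replicate 1 (0.0897). Of 11 genes of double-stranded RNA binding and editing (median 0.09), only Dgcr8, a partner of Drosha in miRNA processing, was called. It held 8 and 8 ssRNase calls against 8 and 0 dsRNase calls, so that the difference rests on replicate 2. Its adjusted p was 0.687 without dsRNase replicate 2 and 0.368 with voom weights. Ilf2 (log2 difference -2.60) and Drosha (-0.69) did not pass.

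Of 4 fitted nuclear noncoding RNAs (median 0.61), 2 had higher ssRNase calls and 1 higher dsRNase calls, against 9.36% and 8.09% of all fitted genes. Neat1, the scaffold of paraspeckles, held 68 and 58 ssRNase calls and 38 and 38 dsRNase calls (log2 difference 0.91 ± 0.128 SE, limma adjusted p = 9.96e-10). Kcnq1ot1, an imprinted antisense RNA, held 97 and 117 against 75 and 57 (0.89 ± 0.0819, adjusted p = 1.60e-23). Malat1, an abundant RNA of nuclear speckles, went the other way, with 2 and 2 ssRNase calls and 16 and 9 dsRNase calls (-2.13 ± 0.475, adjusted p = 0.000251). These 3 calls were kept under all alternatives run, with the highest adjusted p of Malat1 just under the threshold. Firre, the remaining one, held 25 and 23 against 25 and 19 (log2 difference 0.32) and did not pass (adjusted p = 0.328). None of the 6 fitted snoRNA host genes passed in limma, with 0 at an unadjusted p below 0.05 and 0 with voom weights (median 0.58), and Snhg5 had the largest difference (0.90).

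Intronic calls per gene showed far fewer differences. Of 1566 fitted genes, 6 (0.383%) had higher ssRNase calls and 0 (0%) higher dsRNase calls by limma, while the unadjusted p was below 0.05 for 176. The 6 were Tmem267, Psmb1, Rps6kc1, Snx9, Pfkp and Gse1. With limma-voom weights, median-ratio scaling or a score of at least 10, 0 passed, while 21 passed, in both directions, with sites of 20 to 40 nt kept. The calls also depended on which call set was left out, though such a fit leaves a single call set for a nuclease. In introns of Tmem267 (chromosome 13, 119488039 to 119611059, plus strand) there were 21 and 21 ssRNase calls and 0 and 0 dsRNase calls, which against a floor of 3 calls over both dsRNase sets is at least 11.7-fold higher with ssRNase (limma adjusted p = 0.0133, and 9.51e-17 to 0.691 over the alternatives). At day 0 the same introns held 29 and 25 ssRNase calls and 0 and 0 dsRNase calls, and at day 2 they held 23 and 26 against 0 and 0.

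Most of these genes held clusters of repetitive, G-rich sites. The 24 sites of Tmem267 lay within 7978 nt, averaged 39.5% G, and 83.3% of them lay mostly in sequence that the assembly marks as repeats. For Pfkp, a phosphofructokinase gene, 95% of 40 sites did, for Snx9, a sorting nexin gene, 88.6% of 35, and for Psmb1, a proteasome subunit gene, 66.7% of 24. Over all intronic sites of the single-nuclease groups the share was 2.49% to 3.34% per call set. Rps6kc1 had 0% of 9 sites and Gse1 1.24% of 242 in such sequence. Gse1 held the most calls, 175 and 148 with ssRNase and 93 and 67 with dsRNase, a log2 difference of 0.73.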

How the data were processed

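PIP-seq of 24 MEL cell libraries (8 at day 4) was analysed from 3 lists of merged sites. The authors trimmed reads with cutadapt 1.2.1, collapsed them, aligned them to mm10 with TopHat2 2.0.10 (per the labels), with several hits per read allowed, and called PPSs at a false discovery rate of 5% with a modified CSAR package. The deposited value of a site is a score, the authors' enrichment score from a Poisson test of footprinting against structure-only coverage. How libraries were scaled was not given in the sources used here. The name of each site lists its calls, which were matched to the sample titles.

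Genes were from GENCODE M21, and classes were counted wherever a site touched them by 1 nt. A site across an exon-intron edge held exonic and intronic nt of genes on its strand. Folding energies were from ViennaRNA 2.7.2. Calls per gene (0.5 added, scaled to 10000 calls, log2) were fitted with limma 3.58.1 (R 4.3.3, eBayes with trend, Benjamini-Hochberg) over genes with a mean of at least 3 calls. Fold changes of genes with few calls depend on the 0.5 calls added. The replicate was a block, since each replicate was crosslinked and then split between nucleases, but deviations of same-numbered call sets did not correlate over genes (r = -0.00065 for exonic calls). The 2 replicates are described by the study as biological replicates.

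Named genes were the 10 with the largest difference in each direction among those past the threshold with the same sign in both replicates, without predicted or RIKEN symbols or shared exons, and the 3 with the largest difference per list. Members, lists and rules were chosen with earlier results of these data known. On simulated counts, 69 of 100 genes changed 4-fold and 99 of 100 changed 8-fold were recovered in the exonic fit of 2993 genes, with 4 false calls, and 43 and 97 of 100 in the intronic fit of 1566 genes. These counts were drawn independently with a fixed negative binomial spread and no strand skew. They do not give the error rate of the fit to the real calls. The overlap and word searches were also tested on simulated data. The coordinates of single calls inside merged sites were not used here. Results of a few genes are not reported here.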

Additional observations from a re-analysis of the deposited data

Results flagged for a closer look

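Of 20 measures, 3 had differences between nucleases at day 4 opposite in sign, in both replicates, to those of another day. These differences between days were not tested. T content was lower in ssRNase than dsRNase sites by 1.38 points at day 4 (difference -1.38), but the difference was 0.855 points at day 0 and 1.33 points at day 2. The share of sites on small RNA genes differed by -0.256 points at day 4 and by 0.111 points at day 0. The plus-strand share differed by -6.92 points at day 4 and by 11.2 points at day 0, and in each case ssRNase replicate 2 gave the larger part, with -12.0 points at day 4 and 20.02 points at day 0.

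Of 76 combinations of a named gene past the threshold and another day with enough calls, 3 were opposite in both replicates, and none of these differences was tested. Exonic calls of Malat1 had a log2 difference of -2.13 at day 4 and 0.92 at day 0, where it held 27 and 26 ssRNase calls and 13 and 12 dsRNase calls. Exonic calls of Dhx16 had 1.51 at day 4 and -0.69 at day 2. Intronic calls of Pfkp had 1.16 at day 4 and -0.50 at day 0, where 54 and 58 ssRNase calls stood against 21 and 19 dsRNase calls and calls were scaled by the intronic total of each set.

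Among the 30475 sites of 20 to 40 nt, which no comparison above used, 68.1% held dsRNase calls only and 29.9% ssRNase calls only, against 40.1% and 35.7% of sites outside that length class. Calls of both nucleases were held by 1.97% of the short sites and 24.2% of the others. Merging of calls makes sites longer, so these shares are not independent of length. CDS was touched by 41.9% of the short ssRNase-only sites and 33.98% of the short dsRNase-only sites.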

How the results depend on the processing

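The differences in 3′ UTR, 5′ UTR, intron and lncRNA shares, length, base content and folding energy kept their direction under all alternatives run. Without replicate 1 or 2 they ran, in that order, from -16.4 to -13.3, 1.198 to 1.79, 13.9 to 20.0001 and 0.513 to 0.589 points, 5 to 6 nt, for A -3.57 to -3.29, C -1.15 to -0.554, G 5.36 to 5.96 and T -1.83 to -0.920 points, and -1.88 to -1.54 kcal/mol. The CDS difference ran from -3.45 to 3.76 points.

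With sites of both nucleases counted on both sides the differences were -9.53 points for 3′ UTRs, 0.929 for 5′ UTRs, 11.3 for introns, 0.371 for lncRNA exons, -2.13 for A, 3.54 for G and -1.07 kcal/mol. With sites of a single call they were -10.2 (3′ UTR), 11.5 (intron), 0.347 (lncRNA), 2.5 nt, -3.06 (A), 4.54 (G) and -1.44 kcal/mol. With a score of at least 10 they were -24.2, 28.1, 0.715, 3.0 nt, -4.12, 7.49 and -2.22 kcal/mol in the same order, with C at -1.36. With calls of both replicates they were -24.9, 28.8, 0.756, 3.0 nt, -4.17, 7.64 and -2.23 kcal/mol, with C at -1.43 and T at -2.04. With each site in 1 class they were 12.5 (intron) and 0.304 (lncRNA). With sites of 20 to 40 nt kept, the length difference was 7.5 nt.

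Sharing with the other nuclease was 38.1% for ssRNase and 43.9% for dsRNase sites at a score of at least 10, and 21.9% for dsRNase sites with the short sites kept. Words in 30-nt windows differed by 3.12 (GGGG), -0.9996 (TTTTT), -2.53 (AAAAA), -1.98 (ATTTA), 3.05 (GTGTG), -1.92 (TGTA), 4.88 (GAAG) and -0.0041 points (CTCTC). With single-call sites they differed by 2.89 (GGGG), 0.344 (CCCC), -3.14 (AAAAA), -2.51 (ATTTA), 3.54 (GTGTG), -1.92 (TGTA), 3.86 (GAAG) and 0.175 points (CTCTC, whose sign turned). With short sites kept they differed by 4.29 (GGGG), -0.795 (CCCC), -3.24 (AAAAA), -2.08 (TGTA) and -0.573 points (CTCTC). With short sites kept, coverage differed by 1.12 points at the end of the 5′ UTR and by -0.150 points, with the sign turned, at the start of the CDS. With sites of both nucleases counted on both sides these were 1.57 and 0.440 points. The junction alternative was chosen after seeing the data.

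The replicate block pairs call sets by replicate. Without the replicate block the differences were -12.7 (3′ UTR), 0.484 (lncRNA) and 5.23 points (G), and 182 genes had higher ssRNase and 160 higher dsRNase exonic calls, and 3 higher ssRNase intronic calls. Median-ratio scaling gave 60 and 55 exonic genes and 0 intronic genes, with all 115 among the 522, and a prior of 7.158 degrees of freedom in place of an unlimited one. Voom weights gave 148 genes with higher dsRNase exonic calls and 0 intronic genes. Genes with higher ssRNase intronic calls numbered 2 with no filter, 3 with 2 calls added, 0 at a score of at least 10 and 15 with short sites kept, where 6 had higher dsRNase calls. With 1 call set left out, which cannot keep the block, 177 to 267 genes had higher ssRNase exonic calls (185 without ssRNase replicate 1) and 70 to 305 higher dsRNase exonic calls (130 without dsRNase replicate 1), and 0 to 24 had higher ssRNase intronic calls (12 without dsRNase replicate 2) and 0 to 2 higher dsRNase intronic calls. Other causes of these changes were not tested. Of 39 named exonic calls 10 and of 6 named intronic calls 0 were kept under every alternative, and 0 turned in sign. The number of call sets and the few calls per gene limit the precision.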
